A study of Mus musculus with 54 samples.

Results

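The genes described here are the 10 genes of the cytosolic heat shock response Hspa1a, Hspa1b, Hspa8, Hsph1, Hsp90aa1, Hsp90ab1, Dnajb1, Hspb1, Bag3 and Hsf1. They were taken by gene name from 54356 annotated genes, and all 10 were among the 16057 genes tested in the heart and the 15314 tested in the liver. RNA came from heart and liver tissue of male mice with wild-type Mrps12 (Mrps12+/+, the control), with the homozygous error-prone mutation (Mrps12ep/ep) or with the homozygous hyper-accurate mutation (Mrps12ha/ha). MRPS12 is a protein of the decoding site of the mitochondrial ribosome, and the mutations raise or lower the rate at which wrong amino acids enter mitochondrially encoded proteins. All groups were on a C57BL/6 background, were 20 weeks old and had been fed a high-fat diet with 42% of its energy from fat, so that no comparison with a chow diet was made here. Each genotype was represented by 3 mice per tissue, and the labels do not say which heart and which liver came from the same animal.

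The cytosolic heat shock response raises the synthesis of molecular chaperones when proteins misfold in the cytosol or nucleus. Its main regulator, the transcription factor HSF1, binds heat shock elements in the promoters of its target genes, and the inducible HSP70 proteins, their co-chaperones, the small heat shock proteins and HSP90 are among the products. In muscle the BAG3 and HSPB1 proteins also take part in the turnover of damaged sarcomere proteins, while HSC70 and HSP90 beta are made in large amounts in unstressed cells.

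Read depth per mouse ranged from 11202876 to 51480319 reads on genes in the heart and from 21238157 to 81518208 in the liver. Mouse 2 of the Mrps12ha/ha hearts had the lowest depth and stood apart from the other libraries of its genotype: with it left out, the number of genes called in the whole heart table rose from 5 to 4330 against Mrps12+/+ and from 4 to 3730 against Mrps12ep/ep. Results that rest on this heart are therefore given with and without it. Cardiomyocyte genes summed to 2127906 to 3665316 normalized counts in the hearts and hepatocyte genes to 5380782 to 6781978 in the livers, and the labelled tissue matched its markers in every library. Mrps12 itself, whose mutated sites its RNA level cannot show, lay between 1028 and 1397 normalized counts in the hearts and between 1508 and 1915 in the livers, with no call in any comparison.

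The sequences show why the HSP70 pair has to be read together and what its promoters hold. Hspa1a (chr17:34969190-34972156, minus strand, GRCm38) and Hspa1b (chr17:34956436-34959238, minus strand) are intronless copies of 1 exon each whose starts lie 12918 bases apart. Their coding sequences were 99.5% identical over 1929 aligned positions, and their 3' untranslated regions were 52.8% identical. Of the 1896 stretches of 31 bases in the coding sequence of Hspa1a, 1676 also occurred in that of Hspa1b, but none of the 780 in its 3' untranslated region did. Reads from the coding part could thus be assigned to either copy, and the split between the copies rested largely on the ends of the transcripts. The RefSeq promoter window of Hspa1a (250 bases before the start, GRCm38.p6, chr17:34972157-34972406, minus strand) and that of Hspb1 (chr5:135887669-135887918, plus strand) are printed because the copies of the pair had the largest and Hspb1 the smallest difference between Mrps12ha/ha and control hearts, as described below. Capitals mark matches to the heat shock element core, 2 inverted units spelled GAANNTTC or TTCNNGAA, and each of these reads the same on both strands.
Hspa1a: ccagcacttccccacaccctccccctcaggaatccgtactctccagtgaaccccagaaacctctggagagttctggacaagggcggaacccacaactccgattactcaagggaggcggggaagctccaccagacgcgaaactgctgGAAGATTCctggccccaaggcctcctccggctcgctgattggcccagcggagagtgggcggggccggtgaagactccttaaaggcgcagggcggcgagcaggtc
Hspb1: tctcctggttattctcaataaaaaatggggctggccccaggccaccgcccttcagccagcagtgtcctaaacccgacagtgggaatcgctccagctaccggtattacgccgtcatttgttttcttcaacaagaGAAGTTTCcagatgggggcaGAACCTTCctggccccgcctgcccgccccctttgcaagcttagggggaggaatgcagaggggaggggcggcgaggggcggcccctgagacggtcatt

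The window of Hspa1b differed from that of Hspa1a at 3 of 250 positions, counted from 1 at the 5' end, C44T, T47C and T249G, none of them in the match. The match began 104 bases before the start in both genes. Hspb1 had 2 matches, which began 117 and 97 bases before its start. Hsph1 had 1 match, which lay in both of its overlapping windows. Each of these windows held 5 annotated transcript starts of Hsph1, and the match lay within the annotated gene. The windows of Dnajb1 and Bag3 held none, but 1 of those of Dnajb1 lay inside the gene. Over all 32851 promoter windows of this length, 12.8% held such a match, and 0.466% held a longer one of 3 units, which no window of these genes did. Windows for Hspa8, Hsp90aa1, Hsp90ab1 and Hsf1 were not used here.

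In the control mice Hspa8 was the most abundant of the 10 genes in both tissues when the normalized count was divided by the length of the longest coding transcript. Hspa8 encodes HSC70, the constitutive cytosolic HSP70, and it stood at 38603 ± 7980 normalized counts per kb in the heart and at 35862 ± 6193 in the liver (SD, n = 3). Hsp90ab1, which encodes HSP90 beta, followed at 25378 ± 4945 and 19571 ± 3227 per kb. In the heart Hspb1 and Bag3 came next at 7678 ± 2015 and 6732 ± 604 per kb, with overlapping ranges, followed by Hsp90aa1 at 3224 ± 1183. The rest of the heart order could not be resolved, since each of Hsph1, Hsf1, Hspa1b, Hspa1a and Dnajb1 overlapped its neighbour, from 1147 ± 645 down to 430 ± 115 per kb.

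The liver had the same first pair, but Hsp90aa1 came next at 3546 ± 646 per kb. Bag3 followed at 1477 ± 193, above Hspb1 without overlap but overlapping Hsph1. Hspb1 and Hsph1 at 1139 ± 45.6 and 1054 ± 531, then Hspa1b and Dnajb1 at 667 ± 486 and 558 ± 124, overlapped from one to the next, and Dnajb1 also overlapped Hsf1 at 440 ± 29.9 per kb. Hspa1a was last at 74.4 ± 49.4 per kb and did not overlap Hsf1. The tables of the tissues were normalized separately, so levels were not tested between them.

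**Figure D1:**
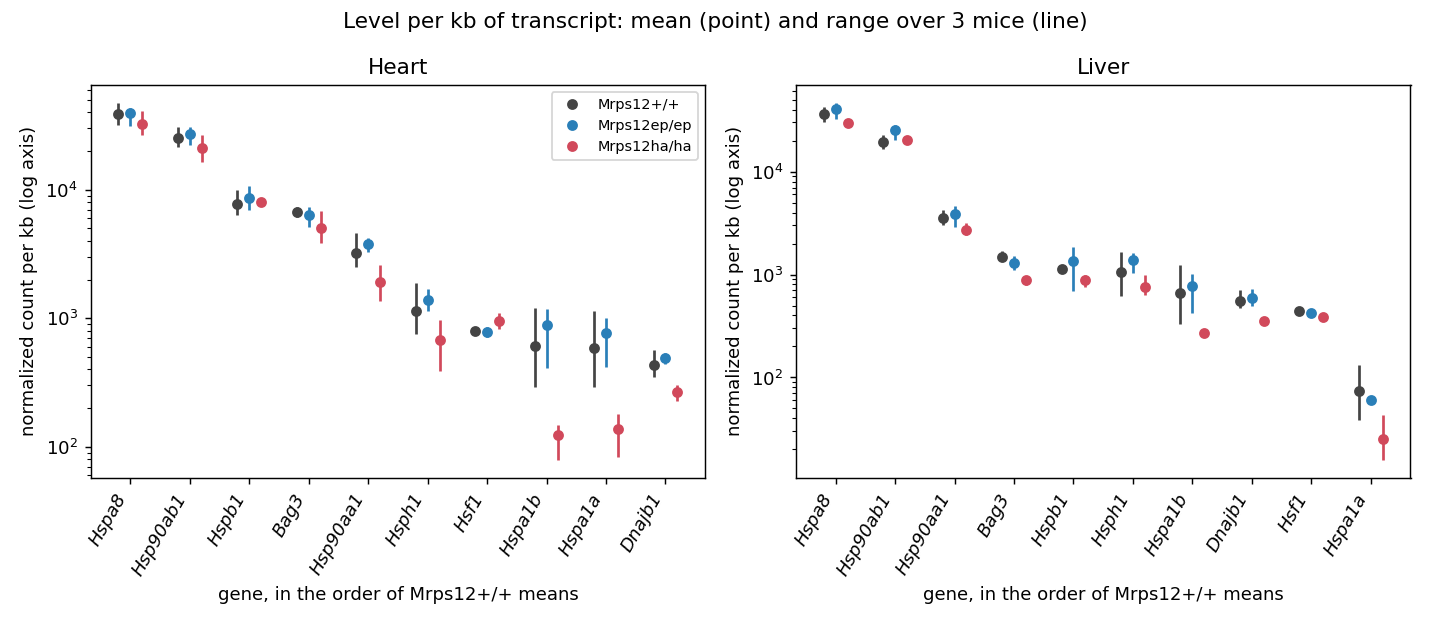
Normalized count per kb of the longest coding transcript (log axis) for the 10 genes, in the order of their Mrps12+/+ means, in the heart (left) and liver (right); points are means and lines the range of 3 mice. Hspa8 and Hsp90ab1 lead in both tissues, and Hspa1a is last in the liver, at 74.4 per kb in Mrps12+/+ mice.

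No gene of the group passed the test in any of the 6 comparisons, with limma on log2(normalized count + 1) and Benjamini-Hochberg adjustment over all genes tested. An unadjusted p under 0.05 was reached by 4 of the 10 between Mrps12ha/ha and Mrps12+/+ hearts, beside 19.7% of all genes. Between Mrps12ha/ha and Mrps12ep/ep hearts 5 reached it, beside 17.9% of all genes. For the same comparisons of livers the counts were 4 and 7, beside 14.1% and 8.62%. Between Mrps12ep/ep and Mrps12+/+ mice 0 reached it for either tissue, beside 1.69% of all genes for hearts and 9.74% for livers. The values below are therefore given as levels and differences in these mice. Since the tests over all genes called few genes, the share of all genes called is given beside each count.

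The question for the heart was whether the cytosolic chaperone genes differed in mice whose mitochondrial ribosomes make fewer or more errors. In Mrps12ha/ha hearts 8 of the 10 genes had a negative log2 fold change against Mrps12+/+ and the median of the 10 was -0.57, beside a median of -0.02 over all genes tested. The inducible HSP70 genes were the farthest apart, with means 4.32-fold lower for Hspa1a and 4.92-fold lower for Hspa1b. Dnajb1 was also lower in every Mrps12ha/ha heart than in every control heart, and Hsf1 was higher in every one. The adjusted p was at least 0.194 for each of the 10 genes.

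Hspa1a had 3401.5, 988.1 and 866.0 normalized counts in the Mrps12+/+ hearts, 2568.7, 2996.9 and 1236.9 in the Mrps12ep/ep hearts, and 244.8, 531.5 and 439.8 in the Mrps12ha/ha hearts. The 3 hyper-accurate hearts lay below all other hearts, and mouse 1 of the controls was 3.93 times the lowest control. For Hspa1b the values were 3346.3, 958.6 and 816.9, then 2973.8, 3327.5 and 1154.2, then 220.9, 407.7 and 411.5. The log2 fold change of Mrps12ha/ha against Mrps12+/+ was -1.89 ± 0.54 for Hspa1a (SE, adjusted p = 0.199) and -2.04 ± 0.57 for Hspa1b (adjusted p = 0.194). The exact permutation test, two-sided, gave 0.1 for each, the smallest p that 3 mice against 3 allow. Without control mouse 1 the log2 fold changes were -1.26 and -1.41 (adjusted p = 0.301 for both), and the means were 2.29-fold and 2.56-fold lower.

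Dnajb1 encodes the HSP40 co-chaperone that delivers substrates to HSP70. Its counts were 1680.1, 1148.1 and 1035.8 in Mrps12+/+, 1609.7, 1502.5 and 1329.5 in Mrps12ep/ep and 673.7, 794.3 and 909.4 in Mrps12ha/ha hearts. The hyper-accurate hearts again lay below all 6 others, with a log2 fold change against the controls of -0.68 ± 0.19 (adjusted p = 0.197). Hsph1, an HSP110 that exchanges the nucleotide of HSP70, had 7191.3, 2851.7 and 3036.3 counts in Mrps12+/+ hearts, 6439.0, 4362.6 and 5016.6 in Mrps12ep/ep hearts and 1470.8, 3681.5 and 2595.4 in Mrps12ha/ha hearts. Mouse 2 of the Mrps12ha/ha hearts exceeded 2 of the 3 control hearts, and the groups overlapped (log2 fold change -0.72 ± 0.40, adjusted p = 0.321).

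Bag3, a co-chaperone that couples HSP70 to autophagy, stood at 18716.6, 15631.6 and 17391.4 in Mrps12+/+ hearts, 18720.6, 13204.9 and 17252.9 in Mrps12ep/ep hearts and 9831.4, 17613.2 and 11412.1 in Mrps12ha/ha hearts. Mice 1 and 3 of the hyper-accurate group lay below every other heart and mouse 2 lay among the controls. Hsp90aa1, which encodes HSP90 alpha, had 15058.5, 8412.4 and 8258.6 counts in Mrps12+/+, 13878.5, 10740.3 and 12671.3 in Mrps12ep/ep and 4478.5, 8480.4 and 6042.1 in Mrps12ha/ha hearts. Here too mouse 2 of the Mrps12ha/ha hearts alone reached the controls, by exceeding 2 of them. Hspa8 and Hsp90ab1 followed the same order, with a mean of 77702 ± 18457 counts in Mrps12ha/ha against 92416 ± 19105 in Mrps12+/+ hearts for Hspa8 and of 53023 ± 13291 against 63953 ± 12460 for Hsp90ab1 (SD, n = 3), both with overlapping groups. The log2 fold changes were -0.45 ± 0.22 for Bag3, -0.73 ± 0.28 for Hsp90aa1, -0.26 ± 0.25 for Hspa8 and -0.28 ± 0.24 for Hsp90ab1, with adjusted p values of 0.222 to 0.565.

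Hspb1, the small heat shock protein HSP27 of humans and HSP25 of mice, did not follow this order. It had 9294.1, 6239.0 and 5887.7 counts in Mrps12+/+ hearts, 10032.9, 6520.4 and 7319.6 in Mrps12ep/ep hearts and 7149.5, 7399.2 and 7968.8 in Mrps12ha/ha hearts, and the groups overlapped (log2 fold change of Mrps12ha/ha against Mrps12+/+ 0.10 ± 0.20, 95% interval -0.36 to 0.56). Hsf1, the gene of the regulator, had 1709.3, 1688.9 and 1616.9 counts in Mrps12+/+, 1807.9, 1513.5 and 1569.3 in Mrps12ep/ep and 1745.0, 1917.8 and 2291.8 in Mrps12ha/ha hearts. The lowest hyper-accurate heart, at 1745.0, was close to the highest control, at 1709.3, and the hyper-accurate hearts overlapped the error-prone hearts (log2 fold change against the controls 0.24 ± 0.12, adjusted p = 0.298).

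**Figure D2:**
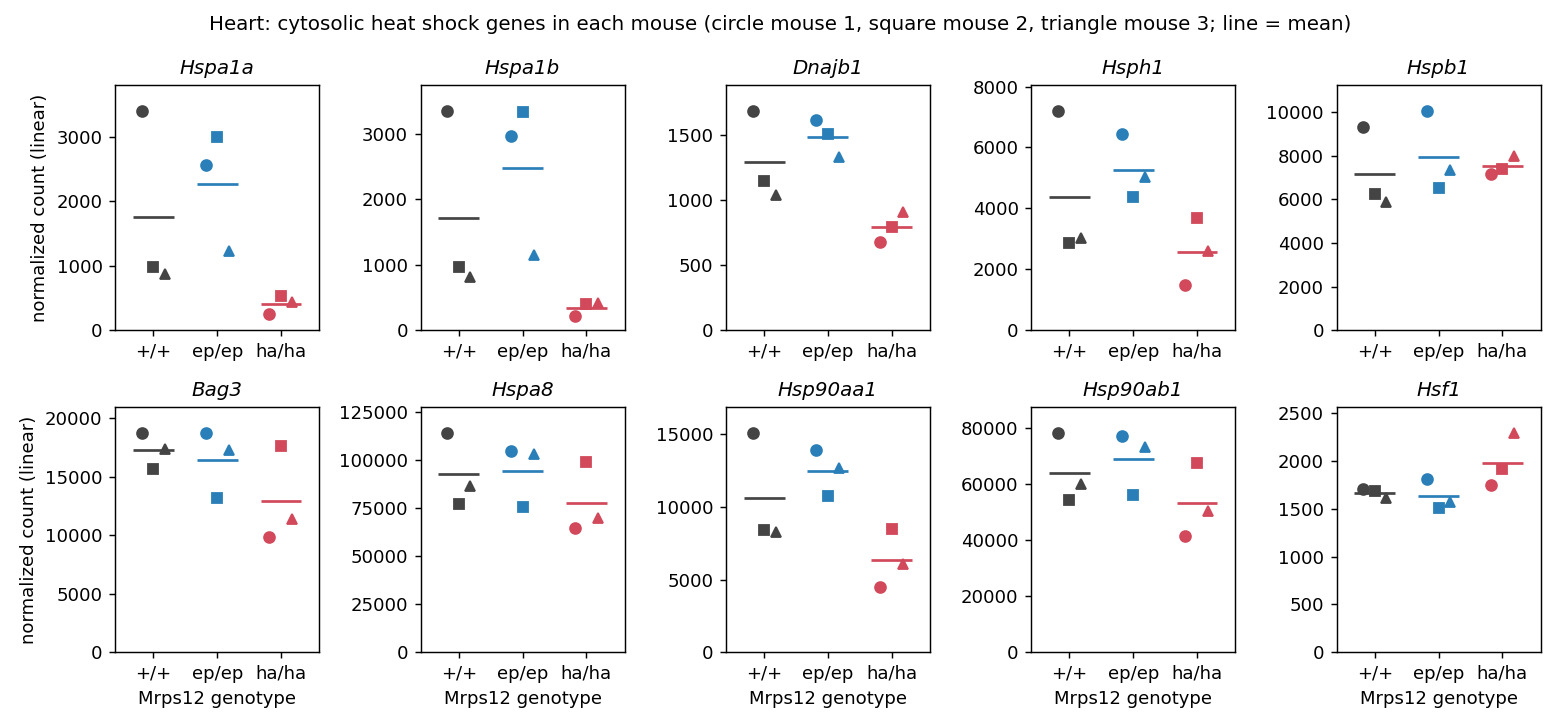
Normalized counts (linear axes from 0) of the 10 genes in each heart by genotype. Circles, squares and triangles are mice 1, 2 and 3, which are not known to be matched between genotypes, and lines are means of 3. The Mrps12ha/ha hearts lie below all others for Hspa1a, Hspa1b and Dnajb1. Mouse 2 of that genotype lies highest of its group for Hspa1a, Hsph1, Bag3, Hspa8, Hsp90aa1 and Hsp90ab1.

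In all, 3 of the 10 genes had Mrps12ha/ha hearts entirely below the controls and 1 had them entirely above, against 10.0% and 11.1% of all genes tested. The limma test called 0.0311% of all genes and 0 of the 10. Left without mouse 2, the hyper-accurate hearts lay below the controls for 8 of the 10 genes, all but Hspb1 and Hsf1, beside 4822 of the 16057 genes tested. In that fit 5 genes were called, Hspa1a, Hspa1b, Hsp90aa1, Dnajb1 and Bag3, all lower, with adjusted p values of 0.0175 to 0.049, while 14.8% of all genes were called lower and 12.2% higher. When each library was weighted by its fit to its group (limma array weights) these 5 were called again, together with Hsf1, higher, and 18.6% of all genes were called lower and 16.1% higher. Leaving out any other Mrps12ha/ha or Mrps12+/+ heart called none of the 10 in this comparison.

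Mrps12ep/ep hearts showed the opposite sign for most genes without separating from the controls. The log2 fold change was positive for 8 of the 10 genes, with a median of 0.20, and the largest were 0.71 ± 0.57 for Hspa1b and 0.57 ± 0.54 for Hspa1a, with 95% intervals of -0.57 to 1.98 and -0.64 to 1.78. No gene of the 10 had groups that did not overlap, where 3.64% of all genes were lower and 4.40% higher in every Mrps12ep/ep heart, and limma called 0.00% of all genes. Control mouse 1, which was the highest of the 9 hearts for 7 of the 10 genes, weighed on this comparison. Without it 6 genes were higher in every Mrps12ep/ep heart than in both controls left, beside 10.9% of all genes, and the log2 fold changes became 1.20 for Hspa1a and 1.35 for Hspa1b, still with an adjusted p of 1.

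Set directly against Mrps12ep/ep hearts, in a comparison that shares its Mrps12ha/ha hearts with the one above, Mrps12ha/ha hearts were entirely lower for 5 genes, Hspa1a, Hspa1b, Hsph1, Hsp90aa1 and Dnajb1. This compares with 7.82% of all genes lower and 8.77% higher. Means were 5.59-fold lower for Hspa1a, 7.17-fold lower for Hspa1b, 2.04-fold lower for Hsph1, 1.96-fold lower for Hsp90aa1 and 1.87-fold lower for Dnajb1. The log2 fold changes were -2.46 ± 0.54, -2.75 ± 0.57, -1.11 ± 0.40, -1.01 ± 0.28 and -0.91 ± 0.19 in that order, and the adjusted p values lay between 0.19 and 0.249, with 0.0249% of all genes called. Without Mrps12ha/ha mouse 2 these 5 genes and Bag3 were called lower (adjusted p of 0.0149 to 0.0416), beside 12.9% of all genes lower and 10.4% higher. With array weights 8 of the 10 were called lower and Hsf1 higher, beside 20.9% and 18.4% of all genes, and Hspb1 was not called.

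In the liver the question was the same, and leaving out any 1 liver of the genotypes compared called none of the 10 genes and at most 90 of all genes. All genes but Hsp90ab1 had a negative log2 fold change in Mrps12ha/ha livers against Mrps12+/+, with a median of -0.38 beside -0.02 over all genes tested. Bag3 and Dnajb1 were the most clearly separated, at 1.68-fold and 1.58-fold lower means, and Hspa1b and Hspb1 were also lower in every Mrps12ha/ha liver. The lowest adjusted p was 0.106, for Bag3.

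Bag3 had 4354.5, 3498.1 and 3496.7 counts in Mrps12+/+ livers, 3255.7, 3919.5 and 2845.3 in Mrps12ep/ep livers and 2349.1, 2008.7 and 2400.7 in Mrps12ha/ha livers. The 3 hyper-accurate livers lay below the 6 others, with a log2 fold change of -0.74 ± 0.14 against the controls (adjusted p = 0.106). Dnajb1 had 2097.5, 1406.2 and 1514.8, then 1491.8, 2156.7 and 1664.6, then 1094.8, 1047.0 and 1031.4 counts in the same order of genotypes. Again every hyper-accurate liver was lower than the rest (log2 fold change against the controls -0.64 ± 0.17, adjusted p = 0.173), and their SD was 33 counts beside 372 in the controls (n = 3 each).

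Hspa1b, which carried most of the inducible HSP70 signal in this organ, stood at 3431.0, 1239.6 and 935.9 in Mrps12+/+ livers, 1187.7, 2806.5 and 2561.2 in Mrps12ep/ep livers and 828.3, 713.9 and 709.1 in Mrps12ha/ha livers. Its hyper-accurate livers were the lowest of the 9, with the log2 fold change against the controls at -1.08 ± 0.46 (adjusted p = 0.337). Hspa1a had 387.6, 160.1 and 114.1 counts in Mrps12+/+, 167.8, 198.0 and 175.3 in Mrps12ep/ep and 128.5, 51.9 and 46.8 in Mrps12ha/ha livers. Mouse 1 of the Mrps12ha/ha livers, which had the lowest depth of the livers, exceeded the lowest control, so that the groups overlapped (log2 fold change -1.49 ± 0.48, adjusted p = 0.238). As in the heart, mouse 1 of the controls was the highest of its group for both genes, by 3.67 times over the lowest for Hspa1b and 3.4 times for Hspa1a. Without it the log2 fold changes against the controls were -0.52 for Hspa1b and -0.98 for Hspa1a (adjusted p = 0.493 and 0.325), and the means were 1.45-fold and 1.81-fold lower. Without mouse 1 of the Mrps12ha/ha livers the mean of Hspa1a was 4.47-fold lower than in the controls.

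Hspb1 had 1034.1, 1035.0 and 1108.0 counts in Mrps12+/+ livers, 645.2, 1720.2 and 1427.1 in Mrps12ep/ep livers and 699.7, 866.8 and 910.8 in Mrps12ha/ha livers, so that the error-prone livers spanned both other groups. Hsf1 had 878.7, 899.2 and 996.3, then 856.1, 844.9 and 943.3, then 809.2, 797.2 and 840.1 counts. Its hyper-accurate livers were the lowest by a small margin, with a log2 fold change against the controls of -0.18 ± 0.10 (adjusted p = 0.435). Hsph1, Hspa8, Hsp90aa1 and Hsp90ab1 overlapped between Mrps12ha/ha and Mrps12+/+ livers, at log2 fold changes of -0.38 ± 0.33, -0.26 ± 0.18, -0.38 ± 0.20 and 0.05 ± 0.17. Without control mouse 1 those of Hsph1, Hspa8 and Hsp90aa1 were -0.00, -0.13 and -0.24. The sign for Hsp90ab1 was negative, at -0.01, after quantile normalization.

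**Figure D3:**
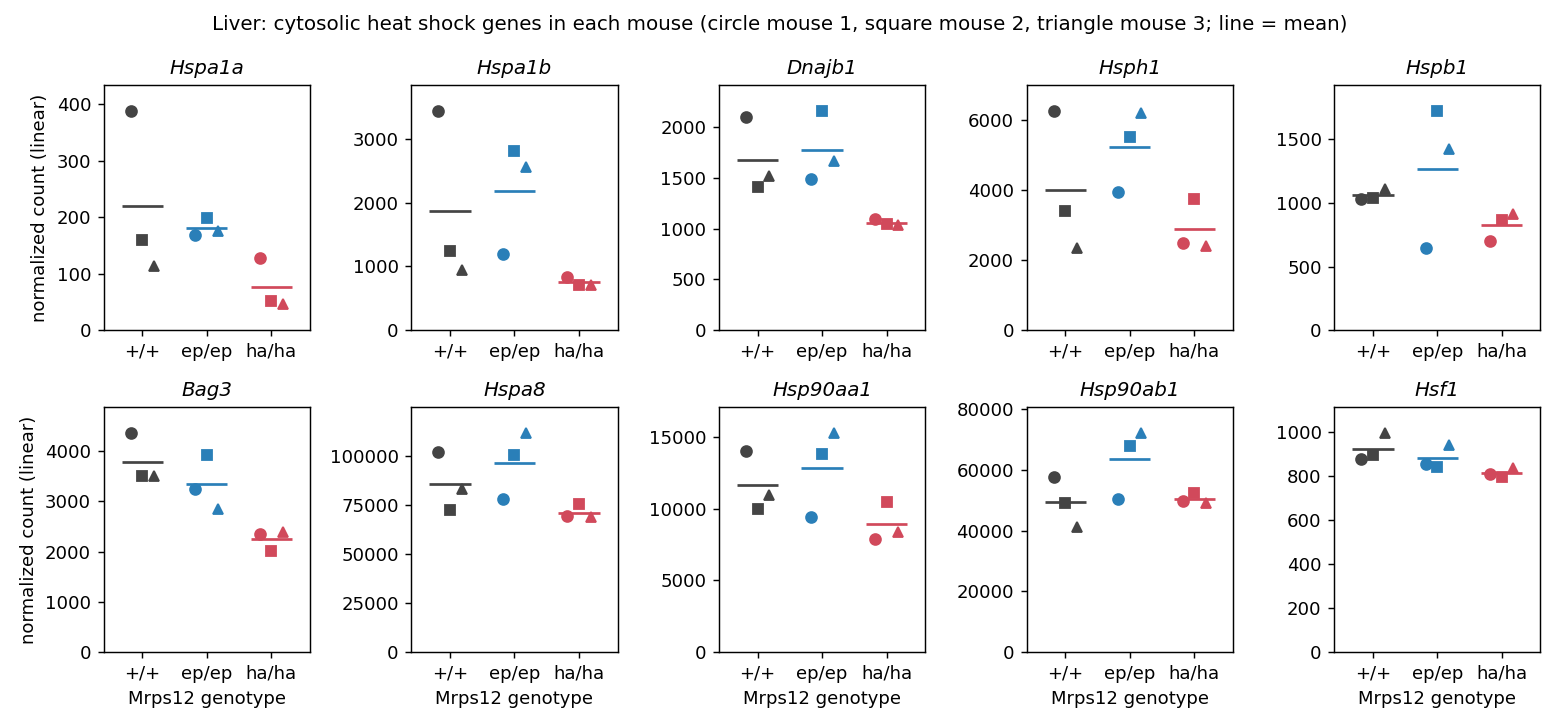
Normalized counts (linear axes from 0) of the 10 genes in each liver by genotype. Circles, squares and triangles are mice 1, 2 and 3, which are not known to be matched between genotypes, and lines are means of 3. The Mrps12ha/ha livers lie below all others for Hspa1b, Dnajb1, Bag3 and Hsf1 and close to each other for most genes, at 1031.4 to 1094.8 for Dnajb1.

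Together 5 of the 10 genes, Hspa1b, Dnajb1, Hspb1, Bag3 and Hsf1, were lower in every Mrps12ha/ha liver than in every control liver and none was higher, against 9.81% and 10.0% of all genes tested. Limma called 0 of the 10 and 0.00653% of all genes. Between Mrps12ep/ep and Mrps12+/+ livers 0 genes of the group separated, where 6.28% of all genes were lower and 6.49% higher in every Mrps12ep/ep liver, and limma called 0.00653% of all genes. The largest difference there was 0.48 ± 0.33 for Hsph1 (95% interval -0.27 to 1.23), and the median of the 10 was 0.13. Without control mouse 1, Hspa1a changed sign in this comparison, from -0.09 to 0.41.

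Mrps12ha/ha livers had a lower mean than Mrps12ep/ep livers for all 10 genes, with a median log2 fold change of -0.53 beside -0.00 over all genes. The groups did not overlap for 7 of them, Hspa1a, Hspa1b, Hspa8, Hsph1, Dnajb1, Bag3 and Hsf1, beside 9.01% of all genes lower and 8.82% higher. Means were 2.91-fold lower for Hspa1b, 2.38-fold for Hspa1a (3.65-fold without Mrps12ha/ha mouse 1), 1.81-fold for Hsph1, 1.67-fold for Dnajb1, 1.48-fold for Bag3 and 1.36-fold for Hspa8. The adjusted p was 0.417 for Dnajb1 and Bag3 and higher for the others, with 0.00653% of all genes called. Mouse 1 of the Mrps12ep/ep livers was the one that overlapped the hyper-accurate livers for Hsp90aa1, Hsp90ab1 and Hspb1, and without it all 10 genes were lower in every Mrps12ha/ha liver, beside 13.1% of all genes.

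**Figure D4:**
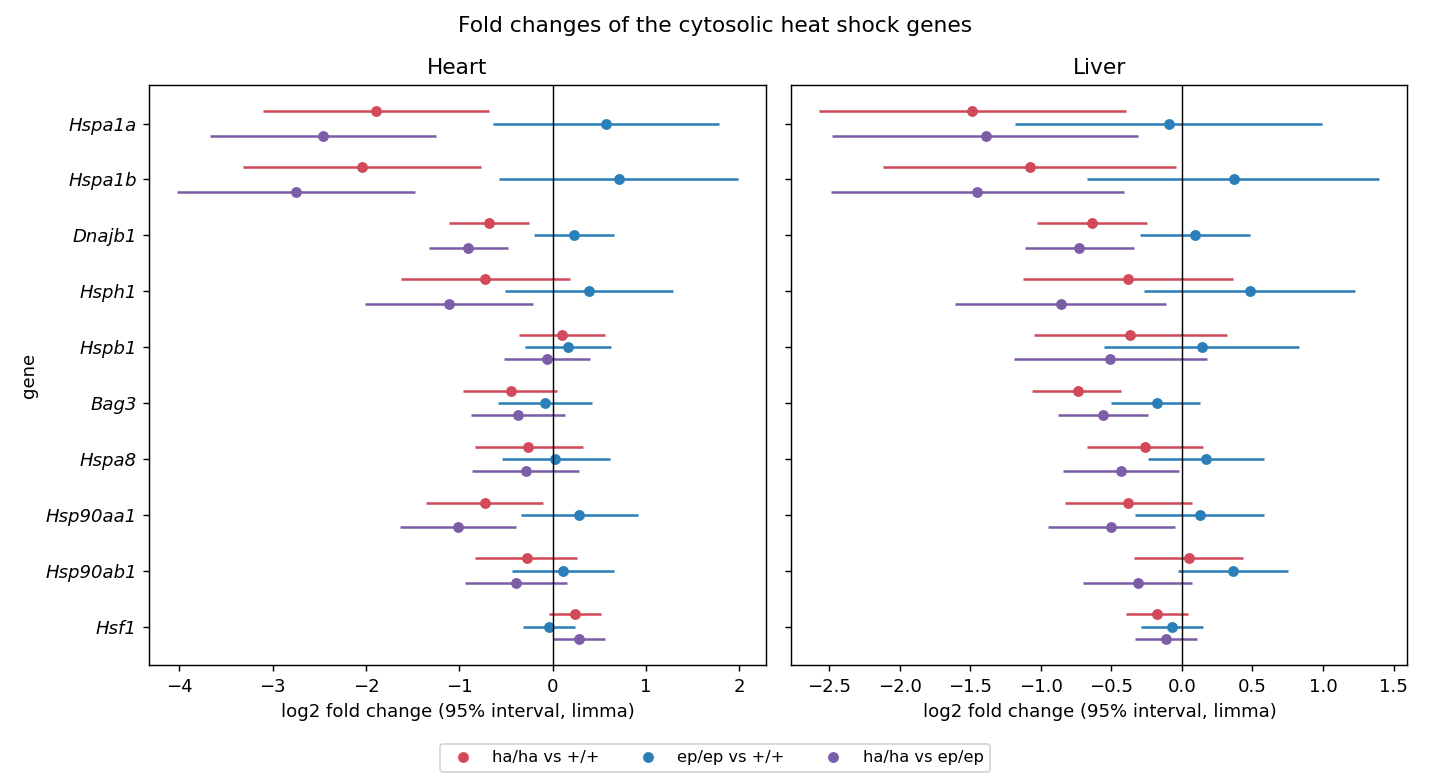
Log2 fold changes of the 10 genes with 95% intervals from limma, in the heart (left) and liver (right), for the 3 comparisons of genotypes. Intervals are widest for Hspa1a and Hspa1b, from -4.02 to -1.48 for Hspa1b between Mrps12ha/ha and Mrps12ep/ep hearts, and narrowest for Hsf1.

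The division of the inducible HSP70 signal between its copies differed by organ more than by genotype. Hspa1a made up 46.3% to 56.6% of the sum of Hspa1a and Hspa1b in the 9 hearts and 6.19% to 13.4% in the 9 livers. In Mrps12+/+ mice these shares were 50.4%, 50.8% and 51.5% in the heart and 10.2%, 11.4% and 10.9% in the liver. As a ratio within a library the share does not depend on the normalization, but it does on how the reads common to both copies were divided. The sum (Hspa1a+Hspa1b), which does not depend on that division, was 6747.8, 1946.7 and 1682.9 in Mrps12+/+ hearts, 5542.5, 6324.4 and 2391.1 in Mrps12ep/ep hearts and 465.7, 939.2 and 851.3 in Mrps12ha/ha hearts. Hence the pooled signal was 4.6-fold lower in Mrps12ha/ha hearts than in Mrps12+/+ and 6.32-fold lower than in Mrps12ep/ep hearts by means, without overlap in either case. Without control mouse 1 the former was 2.41-fold.

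In the livers the sum (Hspa1a+Hspa1b) was 3818.6, 1399.7 and 1050.0 in Mrps12+/+, 1355.5, 3004.5 and 2736.5 in Mrps12ep/ep and 956.8, 765.8 and 755.9 in Mrps12ha/ha mice, 2.53-fold lower in the hyper-accurate mice than in the controls by means and again without overlap. Without control mouse 1 the means differed 1.48-fold. These values rested on 45 reads or more for each copy, the fewest being for Hspa1a in mouse 3 of the Mrps12ha/ha livers. For the sum each exact permutation test of Mrps12ha/ha against another genotype gave 0.1, the smallest possible.

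**Figure D5:**
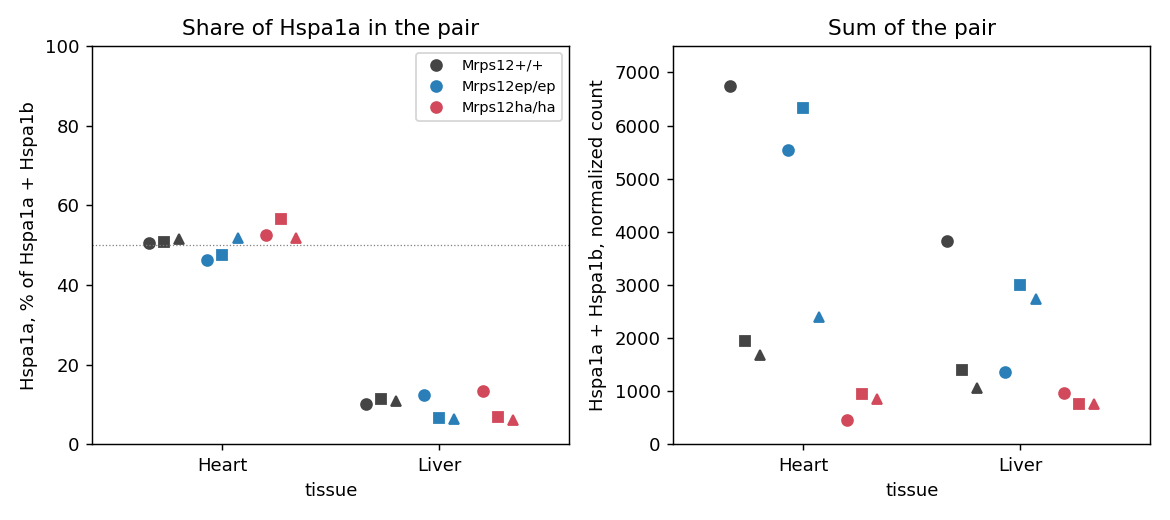
Share of Hspa1a in the sum of Hspa1a and Hspa1b in percent (left) and the sum itself in normalized counts (right) for each mouse; circles, squares and triangles are mice 1, 2 and 3 of a genotype. Shares lie near 50% in all hearts and at 13.4% or less in all livers; the tissues were normalized separately, so the sums are comparable only within a tissue.

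Other members also share sequence with relatives, and the level of the relative with the largest share was read for each. Hspa8 shared 74.3% of its 31-base stretches with the processed pseudogene Gm15459, which had at most 17.1 normalized counts in any library. Hsp90aa1 shared 57% with Gm12346, at most 23.9 counts, and Hspb1 shared 56.7% with Hsp25-ps1, at most 2.5. Dnajb1 shared 0.944% with Dnah8, which had at most 103. The levels of further relatives were not examined. Hsph1 and Bag3 shared no such stretch with any other gene.

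Across the 9 hearts all 36 pairs of genes without Hsf1 had a positive Pearson correlation of log2 counts, with a lowest value of 0.26 and a median of 0.81. The pairs with Hspb1 lay at 0.26 to 0.56. After the genotype means were subtracted the median over the 36 pairs was 0.74. Hsf1 had a negative correlation with 8 of the 9 others (median -0.28, and 0.38 after subtraction of the genotype means). Mouse 1 of the Mrps12ha/ha hearts was the lowest of the 9 for 8 of the 10 genes. In the liver the corresponding median over 36 pairs was 0.74, and 0.65 within genotypes. Hsf1 there had a positive correlation with 8 of the 9 others (median 0.43, and -0.35 after subtraction of the genotype means). All points of a tissue share their normalization, and these correlations over 9 mice are a description.

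The gene most like the sum of Hspa1a and Hspa1b over the 9 hearts was Dnajb1 (r = 0.98), of 16055 genes ranked, followed by Umps, Ankrd1, Etv6, Gm14412, Bhlhe40, Gm9903, Pbld2, 1700066B17Rik and Gbe1 (r from 0.95 to 0.93). Hsp90aa1 ranked 22 and Hsph1 49, with r of 0.90 and 0.88. Over the 9 livers the leading gene was Chordc1 (r = 0.98), a co-chaperone of HSP90, before Setd1a, Zbtb18, Nck1, Carmil2, Bcl6, Api5, Fam72a, Dbf4 and Jmjd6, and Dnajb1 ranked 11. The lists of 10 had no gene in common.

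The rest of the chaperone network was read from lists of 105 other genes, of which 100 in the heart and 99 in the liver were tested. None was called in any comparison, and the lowest adjusted p was 0.106. Between Mrps12ha/ha and Mrps12+/+ hearts 7 of them were entirely lower and 8 entirely higher, with a median log2 fold change of -0.12. Beside 10.0% lower and 11.1% higher among all genes tested, they separated no more often than genes in general in this comparison. In the livers 17 of the other chaperone genes were lower and 5 higher in Mrps12ha/ha than in Mrps12+/+ mice, beside 9.81% and 10.0% of all genes. Against Mrps12ep/ep livers 24 were lower and 3 higher, beside 9.01% and 8.82%. In the HSP70 family Hspa1l, whose start lies 547 bases from that of Hspa1a on the other strand, was lower in every Mrps12ha/ha heart, at 230.1, 371.5 and 316.7 counts against 723.3, 429.1 and 587.4 in Mrps12+/+ hearts (log2 fold change -0.91 ± 0.24, adjusted p = 0.191). Hspa12b of the same family was higher, at 3000 against 1583 counts by means (0.88 ± 0.24, adjusted p = 0.193).

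Among the HSP40 genes Dnaja1, a partner of HSC70, had 2972.8, 5288.2 and 4275.9 counts in Mrps12ha/ha hearts against 8682.7, 7166.4 and 8457.5 in Mrps12ep/ep hearts (log2 fold change -0.99 ± 0.29, adjusted p = 0.236). Dnajc7 was higher in every Mrps12ha/ha heart than in every control (0.51 ± 0.14), while Dnajb5 and Dnajc2 were lower (-0.33 ± 0.13 and -0.33 ± 0.12). In the list of HSP90 co-chaperones Ttc4 was higher (0.49 ± 0.11, adjusted p = 0.185) and Chordc1 and Ppid were lower (-0.50 ± 0.22 and -0.36 ± 0.14). Of the list of HSF family genes and regulators, Ier5l was higher, with means of 283 against 138 counts (adjusted p = 0.191). In the chaperonin list Pfdn5 and Pfdn1, subunits of prefoldin, were higher (0.53 ± 0.16 and 0.28 ± 0.13) and Tcp1 and Cct2, subunits of the TRiC chaperonin, lower (-0.45 ± 0.14 and -0.24 ± 0.11).

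In the liver the list of endoplasmic reticulum chaperones held more genes that separated Mrps12ha/ha from Mrps12+/+ mice than any other chaperone list. All 12 had a negative log2 fold change in this comparison, with a median of -0.52, and 7 of them did not overlap, beside 9.81% of all genes lower. Dnajb9, an HSP40 of the reticulum, had 2699.0, 3605.8 and 3355.2 counts against 7209.0, 5219.7 and 5177.0 (log2 fold change -0.86 ± 0.16, adjusted p = 0.106), and Sdf2l1 was also lower (-1.12 ± 0.30, adjusted p = 0.17). The mitochondrial chaperones showed no such shift in the liver, with a median of 0.01 and 0 of 10 separated. In Mrps12ha/ha hearts their median was -0.27, and with mouse 2 kept Clpp alone separated, and was higher (0.41 ± 0.17). With mouse 2 of these hearts left out, Hspd1, Hspa9, Trap1, Clpx, Dnaja3, Grpel1 and Lonp1 lay below every control heart, while Grpel2 and Hspe1 overlapped. Clpp stayed higher. Hspd1 had 9003.1 and 8568.4 counts there, against 17702.9 or more in the controls. In that setting 4822 of the 16057 genes tested lay below the controls. Among the cytosolic co-chaperones of the liver, Dnajb4 was lower in every Mrps12ha/ha mouse than in every control (-0.51 ± 0.12, adjusted p = 0.134), and Fkbp4, an HSP90 co-chaperone, was higher in every Mrps12ep/ep mouse (0.61 ± 0.19, adjusted p = 0.433).

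Other measures are given beside the chaperone genes, although no clock gene, immediate early gene or cell type marker passed the test in any comparison. Of 15 clock genes, 6 were higher in every Mrps12ha/ha heart than in every control heart and 3 were lower, beside 11.1% and 10.0% of all genes. Nr1d1 among them had 8763.8, 7652.9 and 8358.8 counts against 4551.1, 4936.0 and 3897.9 (adjusted p = 0.0935). In Mrps12ha/ha livers 8 clock genes were higher and 1 lower, beside 10.0% and 9.81% of all genes. For the 15 immediate early genes the median log2 difference from the control hearts was -0.40 in Mrps12ha/ha and -0.07 in Mrps12ep/ep hearts, and Atf3 had 213.5, 326.2 and 283.5 counts in Mrps12ha/ha against 707.8, 740.6 and 919.4 in Mrps12+/+ hearts (adjusted p = 0.0935). In the livers that median was -0.65 in Mrps12ha/ha and -0.51 in Mrps12ep/ep mice against the same controls, and 0.16 between Mrps12ha/ha and Mrps12ep/ep mice. The summed erythroid markers lay at 199245 to 1411965 counts in Mrps12ha/ha hearts, against 91865 to 235641 in the controls, and all 5 had a positive log2 fold change. Atrial markers summed to 4551 to 10279 in Mrps12ha/ha hearts and to 8108, 162740 and 118580 in control hearts 1, 2 and 3, so that control heart 1, with the highest Hspa1a, was also the control with the fewest atrial counts. In Mrps12ep/ep hearts 1, 2 and 3 they summed to 1682, 377881 and 92951. There heart 2, with the most atrial counts, had the highest Hspa1a of its genotype. In the livers skeletal muscle markers summed to 20030 and 24801 in control mice 1 and 2 and to 215 or less in the 7 other livers. Cardiomyocyte markers summed to 8224 in mouse 3 of the Mrps12ha/ha livers and to 46.3 to 505 in the 8 other livers. The other small heat shock genes, some of which are muscle genes, had 5 of 5 negative log2 fold changes in Mrps12ha/ha livers against those controls (median -0.92), with Hspb8 alone separated (-0.47 ± 0.22, adjusted p = 0.386). Adipocyte markers summed to 262, 1420 and 1059 in the control livers and to 57.4 to 204 in the others, and to 16745 in control heart 3 against 1133 to 2686 in the other hearts. Hepatocyte markers summed to 16992, 4840 and 12025 in control hearts 1, 2 and 3 and to 12910, 880 and 1005 in Mrps12ep/ep hearts. In Mrps12ha/ha hearts 1, 2 and 3 they summed to 2571, 16248 and 4553. In bulk tissue fewer cells of a type and less RNA per cell cannot be told apart, and the part of these measures in the heat shock results was not tested.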

How the data were processed

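RNA-seq was performed on heart and liver of 3 mice per genotype, with 3 technical libraries per mouse and 54 libraries in all. Per the study's methods, reads were trimmed with Trim Galore 0.4.1 and cutadapt 1.18, checked with FastQC 0.11.8 and quantified with Salmon 1.1.0 by selective alignment to the GENCODE vM21 transcripts of GRCm38.p6, with a stranded library setting. The authors summed transcripts to genes with tximport and normalized each tissue separately with DESeq2, without mitochondrial transcripts. The methods speak of pooled biological replicates, whereas the labels show that each pooled column holds the technical libraries of 1 mouse. The deposited values are these normalized gene counts, rounded to 1 decimal with comma separators in the larger ones, for which reason they were handled here as a score and not as counts. Tables of the authors' own comparisons hold fold changes and p-values and were not used. Depth was read from the step that 1 read makes in low values.

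Values were tested as log2(value + 1) with limma 3.58.1 in R 4.3.3 (lmFit and eBayes with a trend), with the 3 genotypes of a tissue in 1 fit, over genes whose mean in its 9 mice reached 10, at a Benjamini-Hochberg adjusted p of 0.05. The fit was tested on simulated data. Fold changes on this scale understate the change of low genes. Single genes were also compared by an exact two-sided permutation test of 3 mice against 3, whose smallest p is 0.1 and which cannot reach 0.05. P-values measure the spread between these mice. Tables and figures were made with Python 3.11.15, pandas 2.3.3, numpy 2.4.6, scipy 1.17.1, matplotlib 3.10.9 and Biopython 1.88, and weights used statmod 1.5.0. Alternatives were other pseudocounts, filters, normalizations, weights and fits, and leaving out each mouse of the genotypes compared. The members and gene lists were chosen with earlier results of these data known. Named from the lists were up to 2 genes in each direction with the largest change among those whose groups did not overlap, and the 10 genes most correlated with the sum of Hspa1a and Hspa1b. Chaperones named for the hearts without Mrps12ha/ha mouse 2 fall outside this rule and were added after the data were seen. Levels per kb used the longest coding transcript, and shared stretches of 31 bases were counted between annotated transcripts. Counts of separated genes and folds of Hspa1a and Hspa1b without single mice were added after the data were seen.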

Additional observations from a re-analysis of the deposited data

Results flagged for a closer look

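Hsf1, the gene of the regulator, stood out because Mrps12ha/ha mice differed from Mrps12+/+ mice in opposite directions in the organs. Its log2 fold change was 0.24 in the heart, where every Mrps12ha/ha mouse lay above every control, and -0.18 in the liver, where every one lay below. Neither passed the test (limma adjusted p = 0.298 and 0.435), the tissues were normalized separately, and the difference between them was not tested.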

How the results depend on the processing

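Of the recomputed log2 fold changes of the 10 genes, 973 kept direction and side of the threshold, 26 came to pass it and 21 changed sign. With array weights 6 genes were called between Mrps12ha/ha and Mrps12+/+ hearts and 9 between Mrps12ha/ha and Mrps12ep/ep hearts, against 0. Leaving out 1 mouse gave 0 to 5 and 0 to 6, all calls coming without Mrps12ha/ha heart 2, and 0 elsewhere. The cause was not tested.

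Calls over all genes moved as follows. In Mrps12ha/ha against Mrps12+/+ hearts 5 became 5573 with array weights, 3 with voom and 3 to 4330 without 1 mouse. In Mrps12ep/ep against Mrps12+/+ hearts 0 became 1 with a pseudocount of 0.1 or 8 or only 2 genotypes in the fit, 2 without a filter or with quantile normalization, robust eBayes or voom, 3 with array weights and 0 to 1 without 1 mouse. In Mrps12ha/ha against Mrps12ep/ep hearts 4 became 6314 with array weights and 3 to 3730 without 1 mouse. In the livers 1 became, for Mrps12ha/ha against Mrps12+/+, 0 with a pseudocount of 0.1, a mean of at least 50 or voom, 3 without a filter, 4 with array weights and 0 to 90 without 1 mouse. For Mrps12ep/ep against Mrps12+/+ it became 0 under the same 3 settings or with 2 genotypes, 2 without a filter and 1 to 68 without 1 mouse. For Mrps12ha/ha against Mrps12ep/ep it became 18 with 2 genotypes, 4 with robust eBayes, 13 with array weights and 0 to 4 without 1 mouse.

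With the mouse number as a replicate block, all-gene calls in the heart were 3, 0 and 4 and in the liver 7, 9 and 6, in the order of comparisons above, and 0 of the 10 genes in each. Same-numbered mice correlated between -0.23 and 0.58 in their deviations. The highest values, 0.58 and 0.41, were those of mice 1 and mice 2 of the Mrps12+/+ and Mrps12ep/ep hearts. Whether same-numbered mice share more than a number cannot be told from these values.

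Signs turned for 21 small differences, given here as ranges without 1 mouse. In hearts, Mrps12ha/ha against Mrps12+/+ mice, Hspb1 gave -0.02 to 0.31. Against Mrps12ep/ep mice it gave -0.19 to 0.12, and 0.03 with array weights. In Mrps12ep/ep against Mrps12+/+ hearts the ranges were -0.19 to 0.06 for Bag3 (0.02 with array weights), -0.09 to 0.19 for Hspa8, -0.02 to 0.37 for Hspb1, -0.12 to 0.01 for Hsf1 and -0.00 to 0.26 for Hsp90ab1. In livers, Mrps12ha/ha against Mrps12+/+ mice, Hsp90ab1 gave -0.07 to 0.17, and -0.01 with quantile normalization. Mrps12ep/ep against Mrps12+/+ livers gave -0.06 to 0.26 for Dnajb1, -0.14 to 0.57 for Hspb1, -0.01 to 0.33 for Hsp90aa1, -0.47 to 0.41 for Hspa1a and -0.01 to 0.92 for Hspa1b.

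The planned edgeR and DESeq2 fits were not run, because comma separators in the deposited values kept the columns from being registered as counts. Whole reads were recovered from the values for depth and voom. Precision was limited by 3 mice per group and, for the pair of HSP70 genes, by as few as 45 reads.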
